A study of Mus musculus with 4 samples.

Results

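The zinc finger genes Zfp900 to Zfp999 were taken as the protein-coding genes of GENCODE M21 whose symbol is Zfp9 followed by exactly 2 digits and an optional letter. The rule found 65 members among 21938 protein-coding genes on chromosomes 1 to 19, X and Y of the mm10 build. Each member was read over its gene body and 5 kb on each side. The members lie on 12 chromosomes, with 16 on chromosome 4, 15 on chromosome 17 and 11 on chromosome 2. All symbols and positions are those of GENCODE M21 on mm10.

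Open chromatin was mapped by ATAC-seq, an assay in which a transposase inserts sequencing adapters where DNA is accessible. The cells were T-helper 17 cells, a type of CD4 T cell that makes interleukin 17, and were primary cells from C57BL/6NJ mice. There was 1 group of 4 biological replicates per the labels, all with the same donor identifier and with age unknown, and no treatment or comparison group. Nothing in the labels says that the replicates came from separate animals, so the spread given below may be partly technical.

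The deposited lists held between 83904 and 85293 regions per replicate, of which 64 to 69 overlapped a member window. Regions of the 4 lists that overlapped by at least 1 bp were merged into 101015 regions, and the 68696 with a region from every replicate are called shared. Depth is unknown because the lists hold no read counts. The cell label was read against marker genes: the promoters of 3 of 3 T cell genes (Cd3e, Cd4, Cd28) and 4 of 4 Th17 genes (Il17a, Il17f, Il23r, Ccr6) were open in all 4 replicates. Those of 0 of 3 B cell genes, 1 of 3 myeloid genes (Cd14) and 0 of 3 hepatocyte genes were open in all 4. The hepatocyte gene Apoa1 was however open in replicates 2, 3 and 4, with deposited signals of 10.8, 9.49 and 11.7. In replicates 1 to 4 Il17a had lower signals, of 3.50, 3.07, 3.28 and 3.67, as did Cd4, with 3.85, 3.94, 3.20 and 3.42.

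Most mouse zinc finger genes of this kind encode a KRAB domain followed by an array of zinc fingers. The fingers bind DNA, and the KRAB domain recruits the corepressor TRIM28, which brings in histone methyltransferase SETDB1 and heterochromatin proteins. Many of these proteins bind and silence retrotransposons, and the genes arose by repeated duplication and stand in clusters on several chromosomes. Zfp932 is known to bind endogenous retroviruses. In T cells, TRIM28 and SETDB1 are known to take part in lineage choice and in silencing of retroviral elements. For the other members no role beyond that of the family is given here.

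The longest coding sequence of 56 of the 65 members held a match to a loose KRAB pattern, against 97 of 326 other numbered Zfp genes. The members had a median of 11 zinc finger matches, against 10 in the other numbered Zfp genes. Zfp972, Zfp935 and Zfp957 had no zinc finger match in their longest annotated coding sequence. The KRAB match was found in 28 of the 33 members with an open promoter and in 28 of the 32 others, so it did not divide them.

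The promoters of members on different chromosomes held a common block of sequence. RefSeq promoter windows of 300 bases, 250 before to 50 after the start, were matched by symbol for 55 members. The 12-base word found in more of them than any other, CTGCCAGTCAGA, was in 16 of the 55 (29.1%), against 22 of 16466 other protein-coding genes (0.134%). Of these 22, 19 held the KRAB match. In all 16 members a CCAAT pentamer, the sequence bound by the factor NF-Y, began exactly 23 bases before the word. The 16 lie on 4 chromosomes, but most stand close together. Zfp931, Zfp965, Zfp966, Zfp967, Zfp968, Zfp970, Zfp971, Zfp972 and Zfp973 lie within 2.71 Mb of chromosome 2. Zfp936, Zfp975, Zfp976 and Zfp977 lie within 0.612 Mb of chromosome 7. The carriers are thus not 16 separate cases of the 23-base spacing. The word was found by searching the member promoters themselves, so its share among them is a description. It was in 6 open members (Zfp932, Zfp950, Zfp951, Zfp971, Zfp975 and Zfp976) and in 10 members that were not open in all 4 replicates. The next lines show the 6 open carriers and 2 closed ones, 5′ to 3′, from RefSeq on GRCm38.p6, aligned on the CCAAT and with the CCAAT and the word in capitals. They are shown because the same arrangement stands at promoters of very different measured signal, from Zfp951, the highest of the family, to Zfp976, with a mean of 4.43. Zfp968 had no region, but none of the 50-base words in its promoter window occurs once in the genome. The same holds for the closed carriers Zfp965, Zfp966, Zfp967, Zfp970 and Zfp973, and whether reads could be placed there was not tested. Some carriers are copies of one another, as Zfp966 and Zfp967, whose windows are identical. The RefSeq start of Zfp936 lies 63361 bp from its GENCODE 5′ end.
Zfp951, chr5:104860082-104860194, minus strand: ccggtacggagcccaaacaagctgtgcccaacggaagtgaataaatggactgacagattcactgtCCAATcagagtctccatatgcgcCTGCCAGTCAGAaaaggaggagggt
Zfp950, chr19:61140825-61140937, minus strand: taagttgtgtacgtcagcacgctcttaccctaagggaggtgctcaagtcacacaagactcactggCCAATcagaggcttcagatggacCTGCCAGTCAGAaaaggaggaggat
Zfp932, chr5:109996390-109996502, plus strand: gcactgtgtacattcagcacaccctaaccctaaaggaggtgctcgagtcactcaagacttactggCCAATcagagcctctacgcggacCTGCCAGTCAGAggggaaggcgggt
Zfp975, chr7:42692783-42692895, minus strand: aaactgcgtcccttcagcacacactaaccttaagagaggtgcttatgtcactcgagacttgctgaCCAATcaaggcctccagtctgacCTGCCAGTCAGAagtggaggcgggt
Zfp976, chr7:42642609-42642721, minus strand: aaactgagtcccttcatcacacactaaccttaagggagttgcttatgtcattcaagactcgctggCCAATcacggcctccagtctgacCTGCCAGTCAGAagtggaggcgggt
Zfp971, chr2:178023141-178023253, plus strand: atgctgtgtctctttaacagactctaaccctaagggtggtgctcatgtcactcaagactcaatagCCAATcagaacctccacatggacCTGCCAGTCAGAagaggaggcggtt
Zfp968, chr2:175372333-175372445, plus strand: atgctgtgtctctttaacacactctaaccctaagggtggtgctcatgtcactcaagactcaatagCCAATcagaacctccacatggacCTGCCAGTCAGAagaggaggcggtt
Zfp936, chr7:43177462-43177574, plus strand: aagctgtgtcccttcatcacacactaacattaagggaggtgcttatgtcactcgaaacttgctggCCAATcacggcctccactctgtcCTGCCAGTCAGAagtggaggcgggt

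A promoter was called open where each of the 4 lists placed a region no farther than 1 kb from one of the gene's transcription start sites. The promoters of 33 of the 65 members were open (50.8%), against 64.1% of all protein-coding genes and 288 of 326 other numbered Zfp genes (88.3%). A further 3 members were open in 3 replicates and 29 in none. Of all 21938 protein-coding genes, 789 were open in some but not all replicates and 7079 in none. At least 1 shared region lay in the window of 35 members (53.8%), against 74.8% of all protein-coding genes. For 27 members no replicate had any region in the window. The members' share was thus below the background, and no test over genes was made, since genes are not replicates.

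The promoter sequence of the members differs from that of other genes in measures that move with this count. CpG content was the observed over expected ratio in the gene's 5′ end with 500 bp on each side, and all genes were split into 5 bins of equal size by it. Its median was 0.37 in the members and 0.55 over all protein-coding genes, and within the members 0.46 in the open and 0.29 in the others. In bin 1, the lowest, 0 of 5 members were open, against 15.4% of other genes. In bin 2, 11 of 34 members were open, against 38.6%, in bin 3, 18 of 22, against 76.3%, and in bin 4, 4 of 4, against 93.7%. Within bins 2 and 3, which hold 56 of the 65 members, the members' share lay below that of other genes in bin 2 and above it in bin 3. The other numbered Zfp genes were open more often than the members in both, at 33 of 44 in bin 2 and 106 of 118 in bin 3.

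Uniqueness was the share of 50-base words in the same stretch that occur once in the genome on either strand. The median was 66.4% in the members and 100% over all protein-coding genes. All 16 members whose words were all unique were open, against 73.3% of other genes. None of the 17 members under 25% was open, against 3.08% of other genes. Between 25% and 75%, 11 of 22 members were open, against 185 of 926 other genes, and from 75% to below 100%, 6 of 10, against 52.9%. In the same classes, from the lowest up, 0 of 4, 5 of 10, 66 of 76 and 217 of 236 of the other numbered Zfp genes were open. The sources used here do not give how reads with several equal matches were treated, and the part of uniqueness in these calls was not tested. The measure was chosen after the open calls had been seen.

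**Figure D1:**
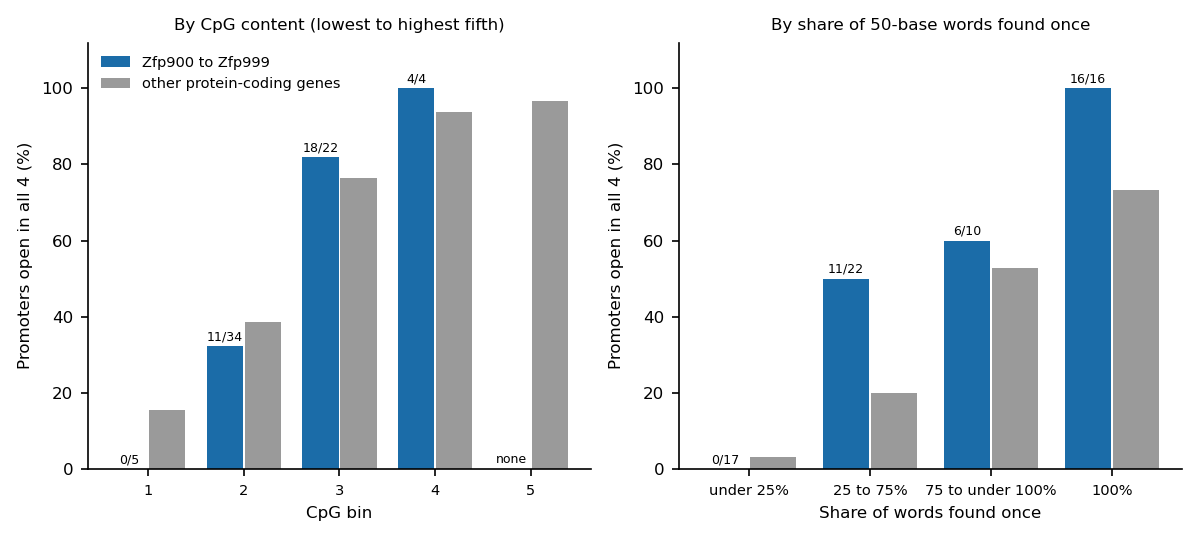
Percentage of promoters open in all 4 replicates for the members (blue, counts above the bars) and other protein-coding genes (grey), by bin of CpG content on the left and by share of 50-base words found once on the right. The members rise with both measures, from 0 of 5 to 4 of 4 over the CpG bins that hold members, and from 0 of 17 to 16 of 16 over the uniqueness classes.

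Open and closed members were unevenly placed along the chromosomes. Joining members less than 1 Mb apart gave 3 stretches with at least 10 members each, a grouping made after the calls had been seen. On chromosome 2, 1 of 10 members between 175372436 and 178078476 was open. On chromosome 4, 2 of 16 members between 145510759 and 147848366 were open. On chromosome 17, 10 of 10 members between 21567008 and 22867134 were open. Outside these stretches 20 of 29 members were open, namely Zfp930, Zfp932, Zfp938, Zfp940, Zfp941, Zfp949, Zfp950, Zfp951, Zfp952, Zfp953, Zfp954, Zfp956, Zfp958, Zfp959, Zfp961, Zfp963, Zfp964, Zfp974, Zfp975 and Zfp976.

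The chromosome 2 stretch held 1 shared region in 2.71 Mb, which was the Zfp971 promoter. Its 28 other protein-coding genes had no open promoter. Assembly gaps make up 16.6% of the stretch, and 6 of its members (Zfp965, Zfp966, Zfp967, Zfp968, Zfp969 and Zfp973) had no unique 50-base word around the 5′ end. Zfp971 was at 47.9%, above all the other members there. The others, Zfp931, Zfp970 and Zfp972, were at 17.4%, 23.1% and 29.3%.

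The chromosome 4 stretch held 5 shared regions in 2.34 Mb, with gaps over 18.5% of it, and its 6 other protein-coding genes had no open promoter. The open members were Zfp984 and Zfp933, neighbours at its distal end. The 14 closed members were Zfp978, Zfp979, Zfp980, Zfp981, Zfp982, Zfp985, Zfp986, Zfp987, Zfp988, Zfp989, Zfp990, Zfp991, Zfp992 and Zfp993. Uniqueness did not separate all of them from the open ones: closed Zfp985 was at 79.7%, Zfp982 at 66.4% and Zfp988 at 65.1%, while open Zfp984 was at 72.7%. Closed Zfp981 was at 68.2%, but at 26.3% in the window of its RefSeq start, 12893 bp away. CpG ratios were 0.19 in Zfp985 and Zfp988 and 0.23 in Zfp981 and Zfp982, against 0.27 in Zfp984 and 0.49 in Zfp933. CpG content alone did not separate them either: closed Zfp991 at 0.31 and Zfp993 at 0.30 lay above open Zfp984, and closed Zfp978 and Zfp979 were at 0.27. Uniqueness was low in these closed members, at 12.7% in Zfp991, 0% in Zfp993, 9.45% in Zfp978 and 8.19% in Zfp979. No closed member of the stretch reached open Zfp984 in both uniqueness and CpG ratio. Whether uniqueness and CpG content account for the calls was not tested. By the narrower rule of neighbours less than 200 kb apart, the largest cluster was 9 members between 146971976 and 147848366, with the same 2 open. The cluster of 4 between 145510759 and 146126621 had none open. Of the closed members of the stretch, Zfp992 alone had a region in its window in some replicates, namely 1, 2 and 3.

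The chromosome 17 stretch held 30 shared regions in 1.30 Mb, or 23.1 per Mb of sequence without gaps, against 25.2 per Mb over the genome with gaps counted. The chromosome 2 and chromosome 4 stretches held 0.443 and 2.62 per Mb. Its open members were Zfp942, Zfp943, Zfp944, Zfp945, Zfp946, Zfp947, Zfp948, Zfp983, Zfp994 and Zfp995, and 5 of its 8 other protein-coding genes were open. The 7 members of its tightest cluster, between 21879570 and 22456689, were all open. Uniqueness ranged from 62.2% to 100% in this stretch, so its lowest values overlap those of closed members on chromosome 4. Its median CpG ratio was 0.49, against 0.35 in the chromosome 2 stretch and 0.22 in the chromosome 4 stretch.

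**Figure D2:**
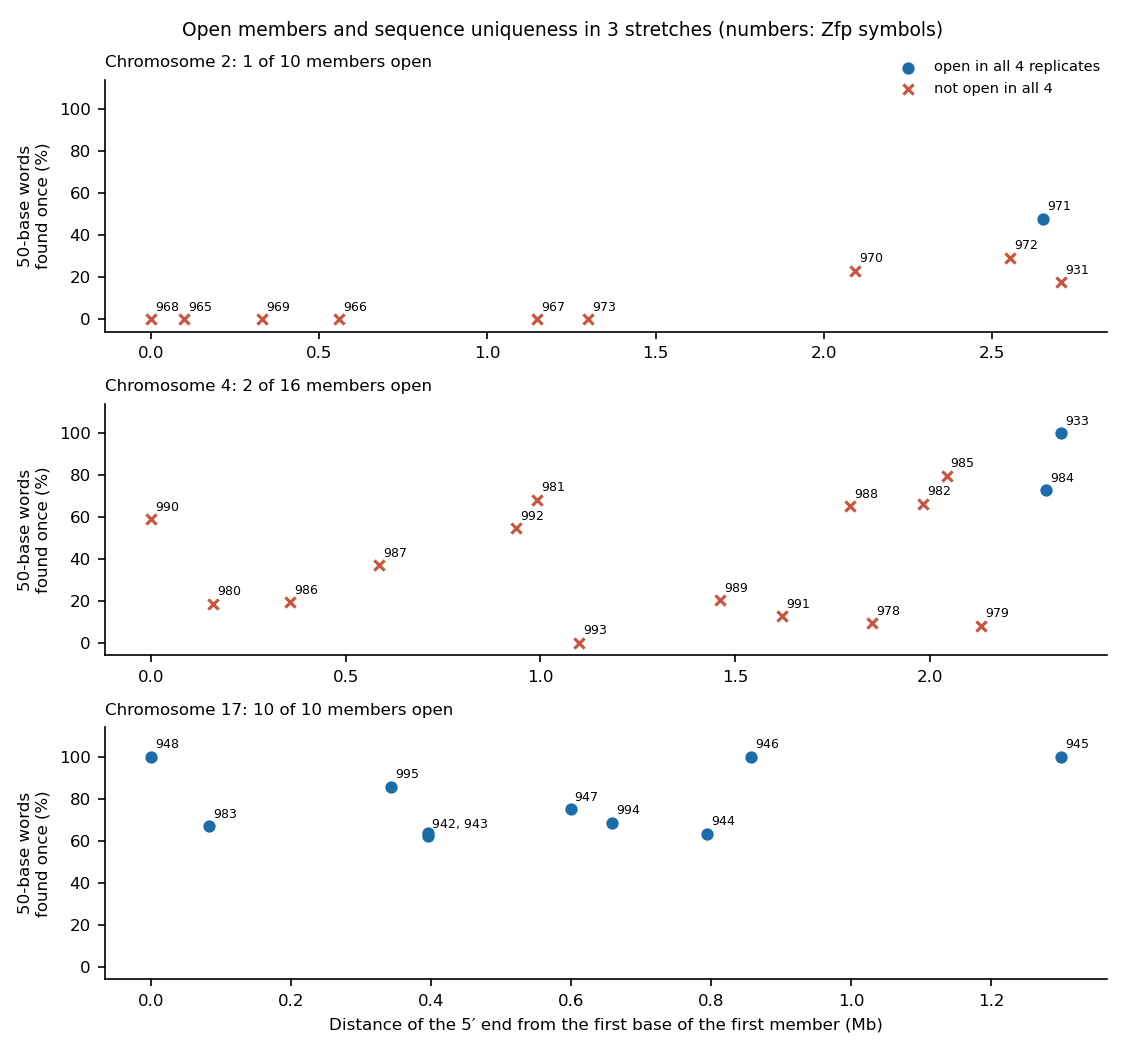
Share of 50-base words found once around each member's 5′ end (per cent) against its distance in Mb from the first member, for the stretches on chromosomes 2, 4 and 17, with open members as blue circles and the others as red crosses. Zfp971 at 47.9% is the highest point and the 1 open member on chromosome 2, while on chromosome 4 closed members at 65.1% to 79.7% stand beside open Zfp984 at 72.7%.

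Away from the 3 stretches 9 members were not open in all 4 replicates. Zfp934 and Zfp935, on chromosome 13, have start sites near the same region, with a signal of 3.02 in replicate 1, 2.68 in replicate 3 and 3.26 in replicate 4, and none in replicate 2. Zfp937, on chromosome 2, had 2.88, 3.19 and 4.25 in replicates 1, 3 and 4 and none in replicate 2. These were among the weakest promoter signals of the family, and all 3 genes lacked a region in the same replicate. Zfp936 and Zfp977, both on chromosome 7, had no region in any replicate although 81.8% and 82.0% of their 50-base words are unique. Zfp960 had none at 64.4%. Zfp955a and Zfp955b, on chromosome 17, have identical promoter windows, no unique word and no region in any replicate.

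Zfp957, on chromosome 14, had no region within 1 kb of a start site but 6 shared regions in its window. The strongest had its summit at −1534 bp from the nearest start site, with signals of 14.9, 14.8, 14.4 and 14.8 in replicates 1 to 4. The other 5 were intronic, with mean signals from 2.85 to 7.70. Its 5′ end was nearly all unique, at 97.5%.

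Among the open members the promoter signal was high beside that of other open promoters, but only by 1 of the deposited values. Signal is the strength that the lists give for each region, and each promoter was ranked by its strongest region among the 14070 open promoters of the same replicate. The median percentile of the open members was 80.6, 79.3, 85.4 and 83.2 in replicates 1 to 4, or 82.1 ± 2.75 (SD, n = 4). The other numbered Zfp genes had a median of 62.7 ± 1.07. By mean percentile 25 of the 33 stood above 50, 18 above 75 and 13 above 90. Ranked instead by the deposited −log10 q, a choice made after seeing the data, the members' median was 40.0 ± 2.02, and 14 of 33 stood above 50. The other numbered Zfp genes then had 52.0 ± 0.760.

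The members' place above or below the middle of open promoters therefore depends on which deposited value is read. Of the 33, 29 ranked higher by signal than by −log10 q. Zfp951, Zfp932, Zfp945, Zfp994 and Zfp995 were above 90 by signal and below 50 by −log10 q, and Zfp961 and Zfp963 were above 90 by both. Promoter regions of the members were narrower, with a median width of 1080 ± 39.7 bp against 1329 ± 38.3 bp for all open promoters (SD, n = 4). The per-replicate medians, 1029 to 1120 bp and 1286 to 1370 bp, did not overlap.

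**Figure D3:**
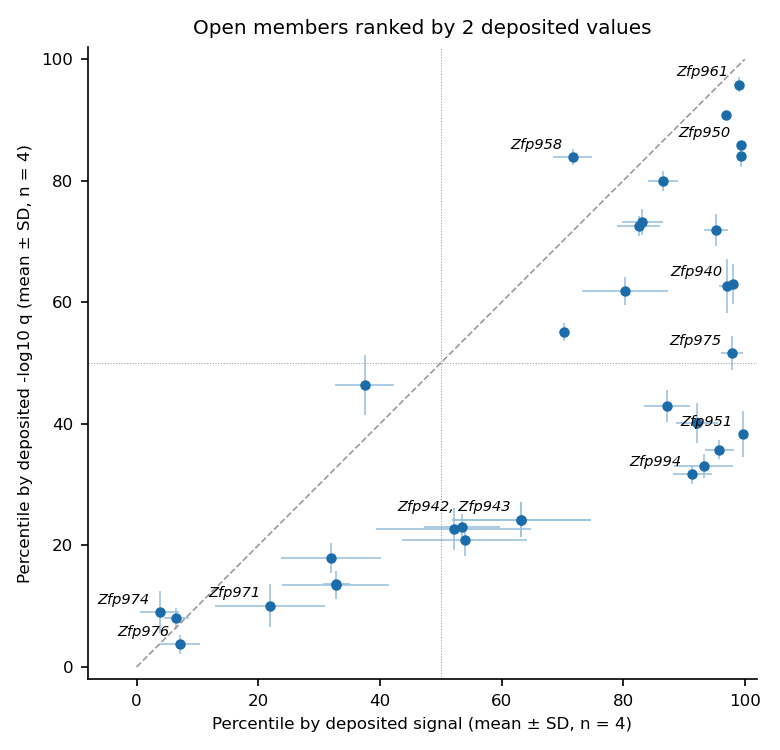
Percentile of each of the 33 open members among open promoters by deposited signal (x axis) and by deposited −log10 q (y axis), as mean with SD over 4 replicates, with the line of equal percentiles dashed. Of the 33 members, 29 lie below the line, and Zfp951 stands at 99.7 by signal and 38.3 by −log10 q.

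The 6 highest members by signal were Zfp951, Zfp950, Zfp964, Zfp961, Zfp940 and Zfp975. The same 6 had their promoter region among the 1000 strongest of the 68696 shared regions of the genome. Zfp951, on chromosome 5 between 104813169 and 104860070, had signals of 19.7, 19.6, 17.6 and 21.1, a percentile of 99.7 ± 0.249. Zfp950, on chromosome 19, had 18.95, 18.72, 18.47 and 17.98. On the signal scale the SD was 1.44 in Zfp951 and 0.417 in Zfp950.

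Zfp964 and Zfp961, on chromosome 8, had 18.7, 19.4, 17.9 and 17.7 (Zfp964) and 19.4, 20.05, 16.7 and 17.3 (Zfp961). Zfp940, on chromosome 7, had 17.5, 18.2, 16.7 and 16.8, with the summit at the same base in all 4 replicates. Zfp975 had 18.2, 17.1, 17.3 and 17.2. The mean percentiles of the 6 lay between 97.9 and 99.7. Zfp932 had signals of 16.5, 16.9, 17.4 and 16.1 and a percentile of 95.8 ± 2.37 by signal, but 35.8 ± 1.56 by −log10 q.

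The 6 lowest open members were Zfp974, Zfp944, Zfp976, Zfp971, Zfp933 and Zfp947. Zfp974, on chromosome 7, had signals of 4.56, 3.95, 2.85 and 2.88, a percentile of 3.83 ± 3.20. Its summits lay up to 514 bp apart between replicates, against a median of 25 bp over the open members. Zfp944 had 4.16, 4.80, 3.83 and 4.66, and Zfp976 had 4.32, 3.34, 5.10 and 4.95. These 3 were the members lost when each list was limited to its strongest regions.

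Zfp971 had signals of 8.79, 6.52, 5.61 and 7.64 and a percentile of 22.0 ± 9.04. Zfp933 had 9.55, 7.70, 9.26 and 7.72, and Zfp947 had 7.06, 9.55, 8.42 and 9.48. Their percentiles, 32.0 ± 8.21 and 32.7 ± 8.74, do not differ beyond their spread. The widest promoter region was that of Zfp942 and Zfp943 at 1984 ± 64.7 bp, followed by Zfp959 at 1810 ± 76.4 bp. Zfp942 and Zfp943 are read from the same region, so both have the same values. Promoter regions of Zfp984, Zfp944 and Zfp953 have their summits nearest to a start of another gene, Gm20707, Zfp758 and Gm28044. Over all open members the summit lay at a median of −40.2 bp from the nearest start site, and within 100 bp of it in 22 of the 33.

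**Figure D4:**
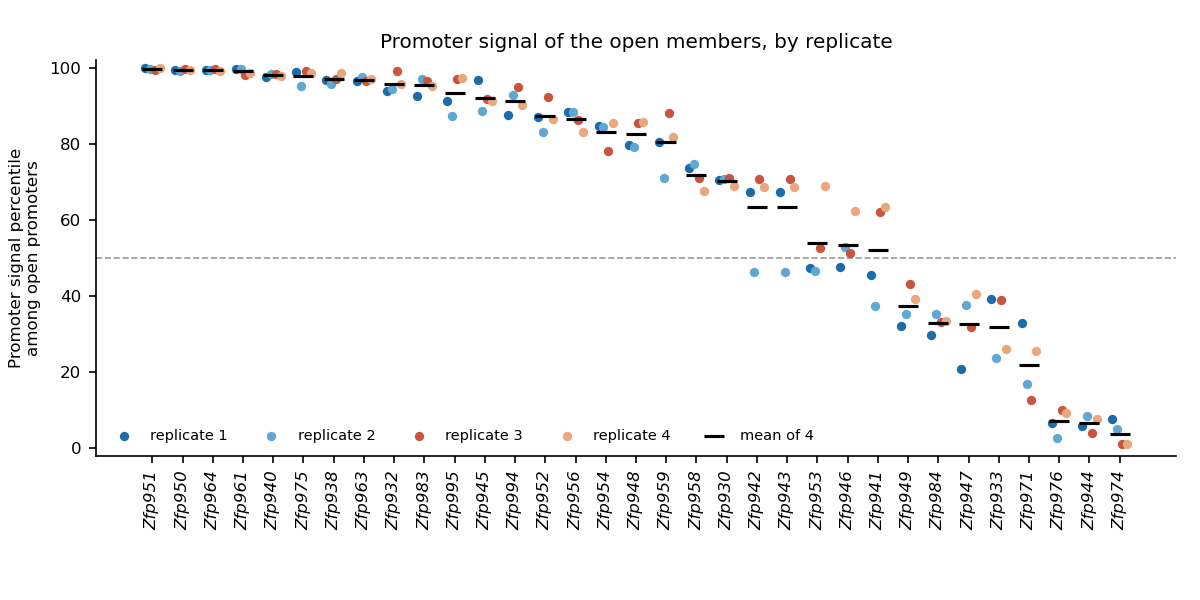
Promoter signal percentile among open promoters (y axis, 0 to 100) of the 33 open members in each of the 4 replicates (points) with their mean (black dashes), ordered from highest to lowest. Zfp951 leads at a mean of 99.7 and Zfp974 is last at 3.83, and the replicates spread most in the middle, as in Zfp941 with an SD of 12.8.

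Members with closely similar promoters could differ in what was measured. The closest partner of each of the 55 members with a promoter window was found by alignment over at least 200 bases. The median identity to the closest partner was 80.3% for the 32 open members and 95.02% for the 23 others, with 3 and 13 members at 95% or more. The 4 pairs below were chosen after their values had been seen, because the members of each are alike in sequence and unlike in call or signal. The 250 bases before the RefSeq start are printed, 5′ to 3′, on GRCm38.p6, with bases that differ from the partner, or have no partner base inside the aligned part, in capitals.

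The first pair was open Zfp984 and closed Zfp981, with 247 of 283 aligned bases identical. Zfp984 had signals of 8.35, 9.25, 8.545 and 8.64, and no replicate had a region in the window of Zfp981. Of the 50-base words in the 300-base window, 85.7% were unique in Zfp984 and 26.3% in Zfp981. The RefSeq start of Zfp981 lies 12893 bp from its GENCODE 5′ end.
Zfp984, chr4:147809789-147810038, minus strand: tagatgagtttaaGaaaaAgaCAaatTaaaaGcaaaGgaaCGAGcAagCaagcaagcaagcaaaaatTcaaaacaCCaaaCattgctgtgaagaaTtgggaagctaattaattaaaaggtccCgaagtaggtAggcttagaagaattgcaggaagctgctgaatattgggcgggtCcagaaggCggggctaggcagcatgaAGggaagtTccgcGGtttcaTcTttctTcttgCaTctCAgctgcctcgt
Zfp981, chr4:146514670-146514919, plus strand: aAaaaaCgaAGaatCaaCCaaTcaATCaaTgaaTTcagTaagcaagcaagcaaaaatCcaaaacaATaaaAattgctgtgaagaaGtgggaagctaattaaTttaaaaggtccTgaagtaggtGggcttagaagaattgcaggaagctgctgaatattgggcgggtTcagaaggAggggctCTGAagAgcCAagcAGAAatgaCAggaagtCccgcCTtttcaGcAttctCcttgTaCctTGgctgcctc

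The second pair was open Zfp971 and closed Zfp968, with 254 of 260 aligned bases identical. Of the 100-base words in the window, all were unique in Zfp971 and none in Zfp968, whose aligned bases were all identical to those of Zfp966. Of the 50-base words, 51.4% were unique in Zfp971 and none in Zfp968. No replicate had a region in the window of Zfp968.
Zfp971, chr2:178023034-178023283, plus strand: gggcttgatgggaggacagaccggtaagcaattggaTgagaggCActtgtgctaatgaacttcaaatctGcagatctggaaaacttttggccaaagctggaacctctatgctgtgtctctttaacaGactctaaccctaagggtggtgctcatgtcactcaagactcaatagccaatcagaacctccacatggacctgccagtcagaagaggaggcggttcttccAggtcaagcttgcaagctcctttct
Zfp968, chr2:175372186-175372435, plus strand: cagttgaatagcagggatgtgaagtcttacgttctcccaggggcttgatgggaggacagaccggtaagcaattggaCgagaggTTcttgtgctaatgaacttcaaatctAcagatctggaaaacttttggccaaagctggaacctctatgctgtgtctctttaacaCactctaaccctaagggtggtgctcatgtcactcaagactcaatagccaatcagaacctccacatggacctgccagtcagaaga

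The third pair was Zfp975 and Zfp976, neighbours on chromosome 7 and both open, with 217 of 239 aligned bases identical. Zfp975 had a mean signal of 17.5 ± 0.524 and Zfp976 one of 4.43 ± 0.803 (SD, n = 4), and the replicates did not overlap. All 100-base words were unique in both windows, but of the 50-base words 91.2% were unique in Zfp975 and 79.3% in Zfp976. The CCAAT and the 12-base word stand in both.
Zfp975, chr7:42692719-42692968, minus strand: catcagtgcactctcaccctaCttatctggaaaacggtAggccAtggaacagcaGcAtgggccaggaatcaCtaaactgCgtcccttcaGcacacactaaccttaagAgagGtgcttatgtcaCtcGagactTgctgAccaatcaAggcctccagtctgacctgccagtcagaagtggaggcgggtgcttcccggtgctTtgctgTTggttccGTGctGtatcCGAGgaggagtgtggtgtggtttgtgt
Zfp976, chr7:42642605-42642854, minus strand: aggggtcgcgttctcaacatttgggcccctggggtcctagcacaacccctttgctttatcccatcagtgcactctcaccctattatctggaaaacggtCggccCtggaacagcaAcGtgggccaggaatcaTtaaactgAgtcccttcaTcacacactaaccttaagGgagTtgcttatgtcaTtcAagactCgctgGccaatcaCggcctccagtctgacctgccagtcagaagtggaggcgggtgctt

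The last pair was Zfp942 and Zfp944, on chromosome 17 and both open, with 274 of 275 aligned bases identical. Zfp942 had signals of 12.9, 10.7, 12.6 and 12.5, and Zfp944 had 4.16, 4.80, 3.83 and 4.66, with no overlap. Unique 100-base words made up 33.8% of the window in Zfp942 and 46.3% in Zfp944, and unique 50-base words 19.9% and 29.9%. The region at Zfp942 also covers the start of Zfp943.
Zfp942, chr17:21962465-21962714, minus strand: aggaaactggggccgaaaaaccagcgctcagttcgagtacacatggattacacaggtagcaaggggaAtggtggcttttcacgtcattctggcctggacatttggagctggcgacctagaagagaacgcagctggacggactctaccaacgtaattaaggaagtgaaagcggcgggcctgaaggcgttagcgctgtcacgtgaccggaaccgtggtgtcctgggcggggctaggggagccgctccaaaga
Zfp944, chr17:22361401-22361650, minus strand: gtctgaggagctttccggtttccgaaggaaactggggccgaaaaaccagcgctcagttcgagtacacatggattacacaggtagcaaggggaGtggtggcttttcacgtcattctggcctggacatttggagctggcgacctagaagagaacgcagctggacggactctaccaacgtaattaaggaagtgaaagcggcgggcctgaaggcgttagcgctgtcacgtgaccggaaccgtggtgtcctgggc

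Beyond their promoters the members held few regions. The member windows had 58 shared regions, of which 33 (56.9%) had their summit within 1 kb of a start site of some gene, against 25.5% of all shared regions. Within each replicate's own list the share was 53.6% ± 1.64 in the member windows and 23.0% ± 0.102 over all regions (SD, n = 4). The windows were centred on genes, which raises this share for any set of genes. Of the 58, 32 were at a member's own promoter, 21 were intronic, 3 lay in the 5′ flank and 1 in the 3′ flank, and 1 was at the promoter of a gene annotated as a miRNA, Gm22256, in the window of Zfp935. That last region was the strongest of all 58, with signals of 21.9, 20.5, 20.1 and 18.9, against a weak promoter region at Zfp935 itself.

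Open members had a median of 1 shared region per window, against 2 in open genes of the other numbered Zfp set and 3 over all open protein-coding genes. Exactly 1 was found in 22 of 33 (66.7%), against 113 of 288 in the other numbered Zfp set (39.2%) and 19.3% of all other open genes. Median gene lengths of the open genes were 21.7 kb in the members, 16.4 kb in the other numbered Zfp set and 23.7 kb over all. The part of gene length was not tested. By number of shared regions, Zfp950 and Zfp957 had 6 each, Zfp944 had 4, and Zfp942 and Zfp984 had 3. The next place was shared by 7 members with 2 each, namely Zfp941, Zfp948, Zfp956, Zfp961, Zfp974, Zfp994 and Zfp995.

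**Figure D5:**
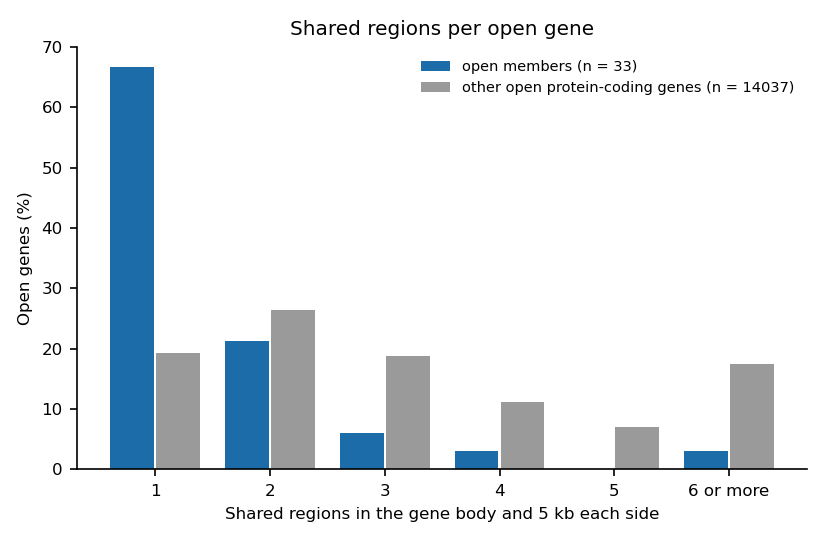
Percentage of open genes (y axis) by number of shared regions in the gene body and 5 kb each side (x axis), for the 33 open members (blue) and 14037 other open protein-coding genes (grey). The bar at 1 region stands at 66.7% for the members and 19.3% for the other genes, and that at 6 or more at 3.03% and 17.5%. The open genes of the other numbered Zfp set, not drawn separately, had 1 region in 39.2%.

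Zfp950, at 87 kb a long member, had 5 intronic shared regions besides its promoter, with mean signals from 3.09 to 11.6. Zfp944 had 3 intronic regions, and all were stronger than its promoter: their mean signals were 14.3 ± 1.86, 11.4 ± 0.543 and 6.27 ± 0.523, against 4.36 ± 0.450 at the promoter. In Zfp974 likewise a region in the 5′ flank, at −4241 bp, had 12.9, 13.3, 12.3 and 13.3, against 3.56 ± 0.840 at the promoter. Both genes were thus low by promoter signal but held a strong region elsewhere. In Zfp941 a region in the 3′ flank had 14.2 ± 0.292, against 10.9 ± 1.18 at the promoter.

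The last coding exon of these genes commonly carries the finger array. No member had the summit of a shared region in the exon that holds the stop codon, among 62 members with such an exon annotated, against 7.73% of all protein-coding genes and 31 of 326 other numbered Zfp genes. A region in 3 of the replicates had its summit in such an exon of Zfp961. Of the 65 members, 30 had no shared region in the window, so none could be found in that exon. Among open genes the count was 0 of 33 members, against 10.5% of all protein-coding genes and 28 of 288 other numbered Zfp genes.

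Of the 58 shared regions in member windows, 7 were among the 1000 strongest of all 68696 shared regions, the 6 promoters and the Gm22256 region. The share for promoter regions of other genes is not given here, so the count is a description. Several others of the 1000 lay near members but outside their windows. The strongest stood at rank 9 of all shared regions, at −10773 bp from a Zfp945 start site and 4421 bp from the nearest start of any gene (AC154486.1), on chromosome 17 (22876318 to 22878163), with signals of 29.7, 29.5, 27.3 and 27.2. It exceeded the Zfp945 promoter, at 17.3, 15.8, 15.2 and 15.2, in every replicate.

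Short strings of known promoter motifs were searched on both strands in the 55 member windows and in 16466 other windows of the same length. Matches may overlap one another and each string was counted separately. The NF-Y string CCAAT was in 42 of 55 members (76.4%), against 38.6% of other genes. It was in 21 of 32 open members and 21 of 23 others, and the 23 hold many near copies. The ETS string CCGGAAG was in 14 members (25.5%), against 12.3% of other genes. Among open genes it was in 6 of 32 members (18.8%), against 17.3% of others, and among the rest in 8 of 23 members (34.8%), against 2.56%. The E-box CACGTG was in 7 members (12.7%), all open, against 8.07% of other genes. Most other genes with it were open too, 1088 of 1329, and it was in 10% of open others and 4.32% of the rest. Of the 7, 6 (Zfp942, Zfp943, Zfp944, Zfp946, Zfp947 and Zfp994) belong to the chromosome 17 cluster of related genes whose members were all open, and the other was Zfp933.

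The KLF and SP string GGGCGG was less frequent in the members, in 20 (36.4%), against 48.3% of other genes. Among open genes it was in 12 of 32 members (37.5%), against 64.4% of others. Among the rest the order was reversed, with 8 of 23 members (34.8%) against 16.7% of others. The TATA string TATAAA was in no member, open or not, against 12.9% of other genes, and the AP-1 string TGANTCA in none, against 7.01%. The NRF1 string GCATGCGC was in none, against 3.78%, and the ZBTB33 string CTCGCGAG in none, against 1.36%. The ZFX string AGGCCT was in 5 (9.09%), against 10%. The CRE string TGACGTCA, the YY1 string AAGATGGC and the GFY string ACTACAATT were in 1 member each, against 2.42%, 3.27% and 0.559%. A match is a string in a window and not a measured site.

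A list of KRAB repressor complex and heterochromatin genes was open throughout. All 16 genes of the list had an open promoter, against 64.1% of all protein-coding genes: the corepressor Trim28, the methyltransferase Setdb1 and its partner Atf7ip, the heterochromatin proteins Cbx1, Cbx3 and Cbx5, the NuRD members Chd3, Chd4, Hdac1 and Hdac2, and Dnmt1, Uhrf1, Morc3, Smarcad1, Suv39h1 and Suv39h2. In CpG bins 4 and 5, the highest, 93.7% and 96.6% of genes other than the members were open, and the CpG content of the 16 was not compared. The signal percentiles of the 16 ran from 12.7 in Chd4 to 96.6 in Suv39h1, with a median of 65.5. Trim28 had signals of 10.5, 11.01, 9.14 and 8.89, a percentile of 42.2 ± 6.53. Setdb1 had 14.6, 12.3, 14.3 and 15.3, a percentile of 79.8 ± 13.7.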

How the data were processed

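ATAC-seq regions of 4 replicates were used as the authors deposited them, 1 list per replicate, on mm10 per the labels. Each region has a signal value, a −log10 q value and a summit, all deposited by the authors. Signal is not normalised between replicates, so ranks within a replicate were used. The sources used here name no aligner or peak caller and do not say how reads with several matches were treated.

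Computed here with Python 3.11.15, pandas 2.3.3, numba 0.67.0 and biopython 1.88 were merged regions, open promoters, percentiles, sequence uniqueness and promoter alignments. Region calls and uniqueness were tested on simulated data. Zinc finger and KRAB matches were counted in translated GENCODE coding sequences, since no protein table was used here. Genes named with values were all members open in 0 to 3 replicates, the 6 highest and 6 lowest promoters, the members with most regions, a region among the 1000 strongest or the widest promoter, the 3 largest clusters, and Zfp932. Stretches, uniqueness, the 12-base word, the sequence pairs and the −log10 q ranking were chosen after seeing the data. The members and lists were chosen with earlier results of these data known. Alternatives are given at the end. No test between groups was made, as there is 1 group, and the only test was Dixon's gap test for 1 replicate standing apart. An unexplained tag in the region names, KS134 for replicates 1 and 2 and KS136 for the others, splits the replicates 2 against 2, too few to pass 0.05 in an exact permutation test.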

Additional observations from a re-analysis of the deposited data

Results flagged for a closer look

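In 8 of 72 quantities tested over the 4 replicates, 1 replicate stood apart from the other 3. Chance alone flags about 1 in 20 such groups, and no cause was tested. Replicate 2 had 33 open members and the other replicates 36 each, the difference being Zfp934, Zfp935 and Zfp937. Replicate 2 was also low for the region shared by Zfp942 and Zfp943, with 10.7 against 12.5 to 12.9, and high for Zfp983, with 17.6 against 15.97 to 16.23. Zfp938 had a signal of 16.2 in replicate 3, against 17.2 in each of the others. Zfp953 had 12.6 in replicate 4, against 10.6 to 10.8, and Zfp975 had 18.2 in replicate 1, against 17.1 to 17.3. Of the list of repressor complex and heterochromatin genes, Cbx5 had 11.9 in replicate 2, against 10.6 to 10.7. Uhrf1, of the same list, had 9.41 in replicate 1, against 8.92 to 8.97.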

How the results depend on the processing

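Each of 7 counts or medians was recomputed under other settings, giving 88 values, of which 80 stayed within 1.5 times the count, or within 1 SD of the median percentile. The largest move came from an alternative added after seeing the data: ranked by the deposited −log10 q, 14 in place of 25 open members stood above the middle of open promoters, and the median percentile was 40.0 in place of 82.1. With a region required in at least 3 or at least 2 replicates that median was 76.8 or 77.0, and leaving out 1 replicate gave 75.7 to 82.7, the lowest without replicate 2. These settings add the weak promoters of Zfp934, Zfp935 and Zfp937. Members with a shared summit in the exon that holds the stop codon numbered 1 in place of 0 (Zfp961) with at least 3 or at least 2 replicates, and 0 to 1 on leaving out a replicate, with the 1 found without replicate 3. Open members ranged from 27, with summits within 100 bp, where 49.8% of all genes were open, to 36, with at least 3 replicates, at least 2 or without replicate 2, where 65.4%, 66.5% and 64.6% were. Members with no shared region ranged from 27 to 33. No paired analysis was possible because there is 1 group. Depth is unknown, so no limit from counting can be given.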
